A study of Mus musculus with 57 samples.

Results

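The 78 genes described here encode the proteins of the cytosolic ribosome, 46 in the large subunit and 32 in the small subunit. They were chosen by symbol alone, as Rpl or Rps followed by a number, together with Rpsa, Rplp0, Rplp1, Rplp2 and Fau and without the S6 kinases, and they are 78 of the 10565 genes of the table. A ribosome holds most of these proteins in a single copy each, the large subunit forms the peptide bond and the small subunit reads the mRNA. Most of their mRNAs begin with a run of pyrimidines, the terminal oligopyrimidine (TOP) tract, through which the mTOR pathway sets how much of them is translated, and activated T cells make many ribosomes before and while they divide. Each of these genes has left processed pseudogenes in mammalian genomes, intron-less copies whose sequence can be close to that of the mRNA.

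The cells were 56 wild-type mouse T helper 2 (Th2) cells of the strain C57BL/6, made from splenic CD4+ T cells of animals aged 8 weeks. All of them had been activated through CD3 and CD28, grown with IL-4 and an antibody to IFNγ for a culture of 5 days, given IL-2 from day 2, and stimulated again through CD3 and CD28 before capture on a Fluidigm C1, which isolates single cells and amplifies their cDNA. The titles number the cells in 5 sets, T1 with 8 cells and T2 to T5 with 12 cells each; the labels do not say what a set is or how many animals or cultures gave the cells. There is therefore 1 sample and no untreated group, so values are described over cells, and no test between cells was made. Levels are TPM, abundance per transcript length on a fixed total per cell, so that genes can be compared with each other. TPM keeps no depth: the depth of a cell is unknown, and a value of 0 means that the gene was listed at 0. The cell label could be checked against markers: 5 of 5 T cell markers and 4 of 4 Th2 markers were in the table, summed T cell markers spanned 150 to 11419 TPM, and no B cell or myeloid marker had a row. Of the markers of CD8 T and NK cells, mast cells and basophils, and erythroid cells and platelets, 1 of 4 each had a row, and these were at 0 in most cells (Cd8b1 above 0 in 1 cell, Cpa3 in 5 cells, Alas2 in 2 cells).

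A single cell, T3_2, stood apart and touches several values below. It listed 26 of the 78 genes at 0, while no other cell listed more than 7 at 0. The row Mtrnr2l alone took 20.1% of its TPM, against a highest value of 0.444% in the other cells. Across the 78 genes its levels correlated with the mean of the other cells at r = 0.588, while the other cells had r of 0.855 to 0.980. The part of RNA quality or capture in this cell was not tested, and results are given with and without it where it matters.

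The members differ in how far their sequence is shared with other genes. A stretch of 50 bases from the coding sequence of Rpl30 occurs in the transcripts of 10 other annotated genes and a stretch of Rpl23a in 18, which shows how far copies of a member can match it. These stretches were read from the GENCODE M21 annotation of GRCm38, at chr15:34441297-34441346 on the minus strand (Rpl30, coding exon 3) and chr11:78181504-78181553 on the minus strand (Rpl23a, coding exon 3).
Rpl30: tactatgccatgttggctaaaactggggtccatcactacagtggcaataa
Rpl23a: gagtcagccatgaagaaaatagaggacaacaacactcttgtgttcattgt

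The ribosomal protein genes together took a median of 9.17% of a cell's TPM, with an SD over cells of 1.82 percentage points. The lowest cell was T3_2 at 4.27% and the highest was T4_10 at 14.8%, and the next highest, T5_1, had 12.98%. Set T3 had the highest median, 10.05%, followed by T4 with 9.89%, T5 with 8.94%, T2 with 8.90% and T1 with 8.47%. The ranges of the sets overlapped, and the spread within T3 or T4 (SD 2.09 and 2.08 percentage points) was wider than the distance between set medians. Without T3_2 and T3_5, the cell with the most genes detected, the median over cells was again 9.17%, and the lowest cell was then at 6.26%.

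**Figure D1:**
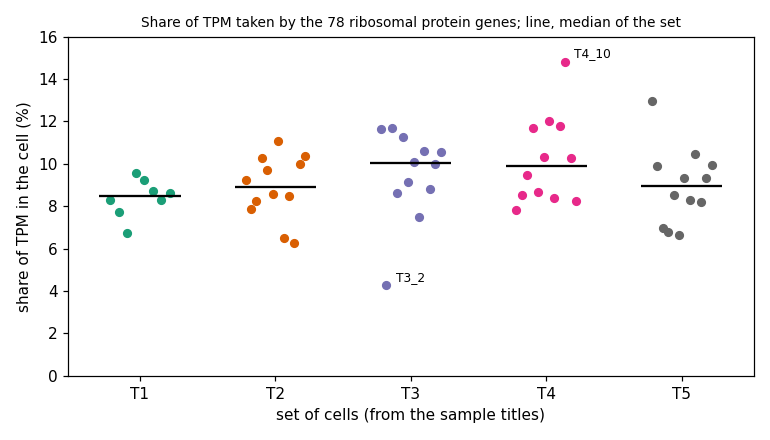
The y axis gives the share of a cell's TPM taken by the 78 ribosomal protein genes in percent, and the x axis the set; each dot is 1 cell (8 in T1, 12 in each other set) and the line is the median of the set. Set medians lie between 8.47% and 10.05%, with T3_2 lowest at 4.27% and T4_10 highest at 14.8%.

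The large subunit genes summed to slightly less TPM than the small subunit genes. The ratio of the large to the small subunit sum had a median of 0.935 over cells (SD 0.108), a lowest value of 0.433 in T3_2 and a highest of 1.13 in T4_12. The next lowest cell, T4_8, had 0.761, so that T3_2 lay outside the range of all others. The large subunit had 11 of its 46 members at a mean of 1000 TPM or more, against 14 of the 32 small subunit members. At the other end, 13 large and 2 small subunit members averaged under 100 TPM. The median member mean was 265 TPM in the large and 700 TPM in the small subunit, and the ratio was 0.707 over the 20 members with no pseudogene named after them in the annotation.

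The members were far from equal in TPM although the ribosome contains them in near equal numbers. Their means over the 56 cells spanned 916-fold, and 25 members at 1000 TPM or more held 85.4% of all ribosomal protein TPM. The 10 highest alone held 52.1%. The 38 members between 100 and 1000 TPM held most of the rest, since the 15 members under 100 TPM held 0.921%. The median member averaged 331 TPM, against 17.8 TPM for the median gene of the table, and 23 members were among the 100 genes with the highest mean.

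The highest members came from both subunits, and 4 of the 6 highest are described. Rps14, a protein of the small subunit platform, had 3074 TPM in its lowest cell, a median of 5665.5 and 12941 TPM in its highest cell. Rpl32, a large subunit protein, had 1276, 5549.5 and 11675 TPM in the same order, and Rpl41, the smallest ribosomal protein, had 1348, 5577.5 and 10162 TPM. These 3 genes were above 1000 TPM in every cell, T3_2 included. Rpl4, a protein with a long loop into the peptide exit tunnel, had 98 TPM in T3_2, a median of 5036 and a highest value of 8714 TPM. The means of these genes (5920 ± 1912 for Rps14, 5827 ± 1912 for Rpl32, 5694 ± 1659 for Rpl41 and 5071 ± 1462 TPM for Rpl4, with the SD over 56 cells) differed from neighbour to neighbour by less than 1 SD. This SD describes the spread between cells and not the precision of a mean, and the order of these genes within single cells was not tested.

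**Figure D2:**
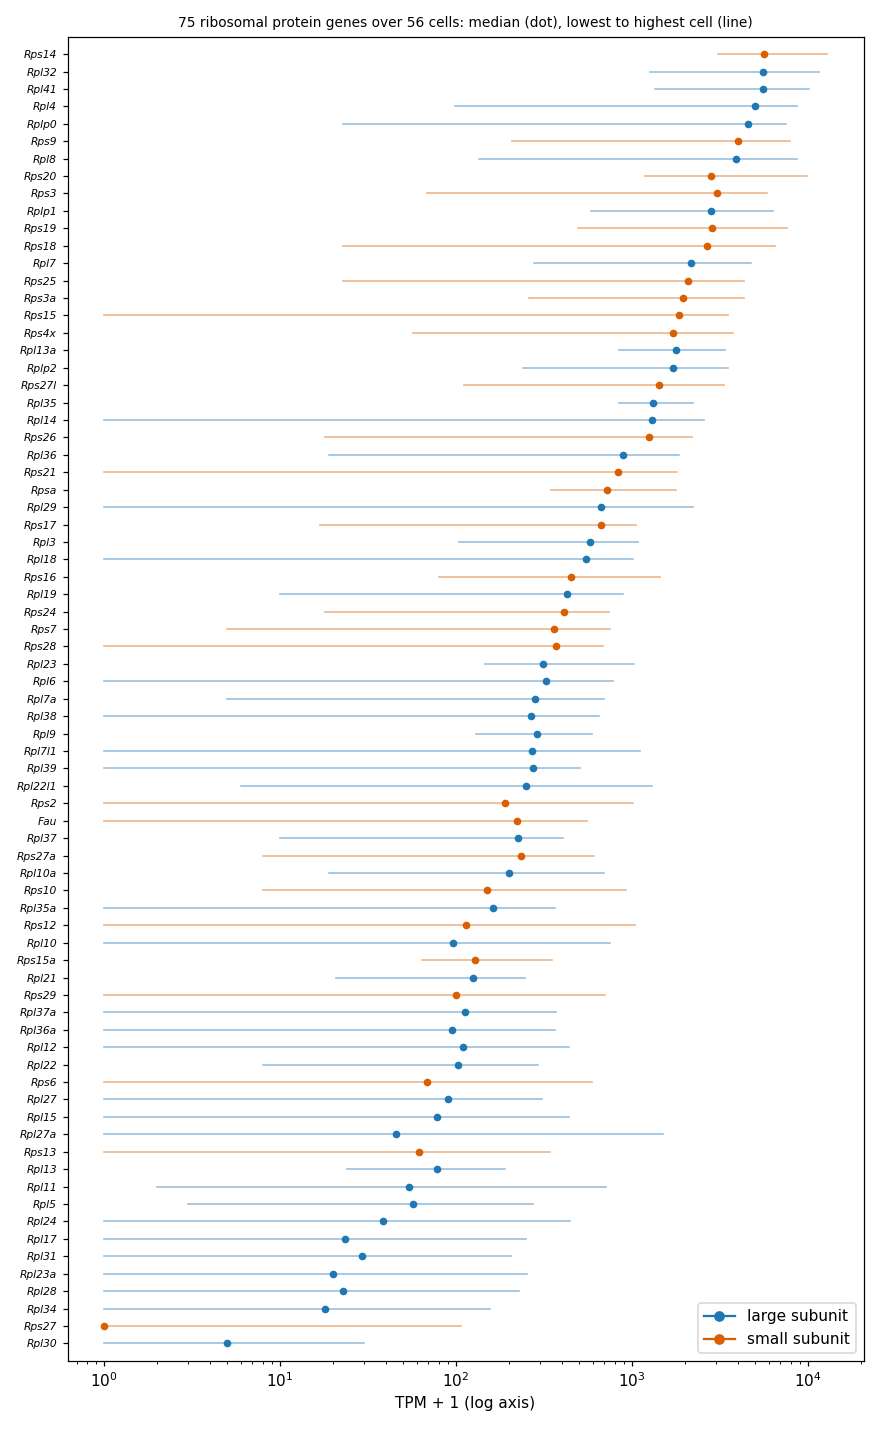
The x axis gives TPM + 1 on a log axis and each row is 1 of 75 of the genes in the order of its mean over 56 cells; the dot is the median cell and the line runs from the lowest to the highest cell, in blue for the large and orange for the small subunit. Medians run from 5665.5 TPM for Rps14 to 4 TPM for Rpl30 and 0 for Rps27, and many lines begin at the left edge because a cell, most often T3_2, listed the gene at 0.

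The 6 lowest members were Rpl30, Rps27, Rpl34, Rpl28, Rpl23a and Rpl31, all but Rps27 in the large subunit. Rpl30 was listed above 0 in 38 cells, with a median of 4 and a highest value of 29 TPM. Rps27, a zinc finger protein of the small subunit also called metallopanstimulin, was above 0 in 20 cells, with a median of 0 and a highest value of 106 TPM. The other 4 reached 155 to 252 TPM in their highest cells: Rpl34 had a median of 17 TPM (39 cells above 0), Rpl28 22 TPM (47 cells), Rpl23a 19 TPM (47 cells) and Rpl31 28.5 TPM (49 cells). Rpl30 never exceeded 29 TPM, below the lowest value of each of the 3 leading genes by more than an order of magnitude.

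The order of the members was stable between sets. Spearman's rho between the member means of any pair of the 5 sets was 0.975 to 0.989 over 10 pairs, so the same genes were high and the same genes low in each set of cells. This is a description over genes that share a pipeline and an annotation, and it carries no test.

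The level of a member varied with how much of its principal transcript is its own. For each member, the windows of 50 bases of its principal transcript were looked up in all other annotated transcripts on either strand. The median share of windows found in no other gene was 58.2% for the members at 1000 TPM or more, 28.9% for those between 100 and 1000 TPM and 23.6% for those under 100 TPM. The median number of pseudogenes sharing at least 1 window was 4, 9 and 14 in the same order. Over the 78 members, rho between mean TPM and the unique share was 0.42 (0.36 with windows of 36 bases and 0.54 with windows of 100 bases), and rho with the number of pseudogenes was -0.43. In all, 1071 annotated pseudogenes shared a window with a member, and 6 of them had a row under the same name in the table. Those 6 took a median of 0.0158% of a cell's TPM. The match was by name between this annotation and a table made on an earlier build. Copies listed under another name, or without a shared window, are thus not counted, and their part was not tested.

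Single members followed or departed from this order. Of the 8 members above 80% unique, 5 were over 1000 TPM and the lowest, Rpl39, averaged 270 TPM. Their transcripts ran from 612 bases for Rpl39 to 3706 bases for Rps20, with 1908 for Rps3 and 1613 for Rps24. The unique share is that of the transcript looked up, and other transcripts of these genes were not tested. Over all members, rho between mean TPM and transcript length was 0.15. Rps27 had 1.35% unique windows and Rpl23a 14.3%. Of the 20 members under 20% unique, 2 were over 1000 TPM: Rps18, with 13.3% unique windows and a mean of 2714 TPM, and Rpl35, with 4.9% over a transcript of 946 bases and a mean of 1388 TPM. Rpl34 and Rpl28 had 49.4% and 49.5% unique windows and still averaged 33.3 and 34.4 TPM. The sources used here do not say how reads with several matching places were counted, and the part of such reads in the low levels was not tested.

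**Figure D3:**
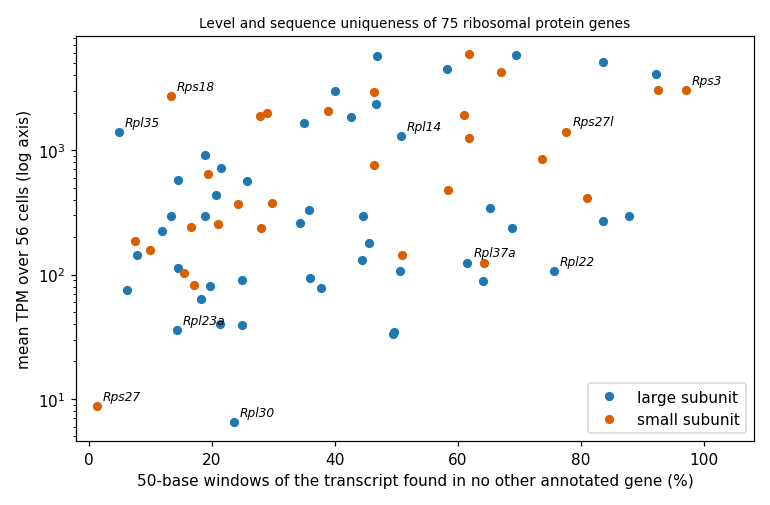
The x axis gives the percentage of 50-base windows of each member's transcript found in no other annotated gene and the y axis the mean TPM over 56 cells on a log axis; each dot is 1 of 75 of the genes, blue for the large and orange for the small subunit. Members at the right are mostly high (Rps3 at 97.0% of a transcript of 1908 bases and 3018 TPM), while members at the left range from Rps27 at 8.70 TPM to Rps18 at 2714 TPM.

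A row with another name carried a sequence of this family. Mir682, annotated as a microRNA hairpin of 96 bases at chr13:75645046-75645141 on the plus strand, is equal to coding bases 151 to 246 of the 276 coding bases of Rpl37a in 95 of its 96 bases. The single difference is T48C, with the Rpl37a base first and positions counted from 1 at the 5′ end of the hairpin; it stands in capitals in both sequences, written as DNA. The hairpin is from RefSeq (GRCm38.p6), and the Rpl37a stretch, from GRCm38, joins chr1:72712160-72712224 and chr1:72713502-72713532 on the plus strand (coding exons 3 and 4).
Mir682: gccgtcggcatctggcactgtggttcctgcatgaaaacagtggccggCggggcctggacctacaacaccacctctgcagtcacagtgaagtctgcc
Rpl37a: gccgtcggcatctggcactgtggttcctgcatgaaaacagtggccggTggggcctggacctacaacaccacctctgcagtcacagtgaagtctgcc

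The row Mir682 averaged 2991 TPM, against 125 TPM for Rpl37a, a zinc-binding protein of the large subunit. It was 24.0 times as high on average and higher in 56 of 56 cells, and rho between the 2 rows was 0.22. TPM divides by length, and the hairpin has 96 bases against 558 for the Rpl37a transcript looked up here. Equal numbers of reads would thus give the shorter row the higher TPM, and the part of length in the ratio was not tested. Rpl37a was listed at 0 only in T3_2 and had a median of 111.5 and a highest value of 369 TPM, while Mir682 spanned 235 to 6224 TPM. The ranges over all cells overlapped, although Mir682 was the higher row within each cell. Whether reads of Rpl37a were counted under Mir682 was not tested.

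The 4 pairs of close paralogs in the table were unequal in opposite directions. Rps27l, a paralog of Rps27 that is a known target of p53, averaged 1410 TPM, against 8.70 TPM for Rps27, and was higher in 56 of 56 cells (162-fold in the mean). Rps27l spanned 110 to 3343 TPM and Rps27 spanned 0 to 106 TPM, so the ranges did not overlap. Rpl22l1 averaged 261 TPM, against 106 TPM for Rpl22, and was higher in 42 cells and lower in 13. Rpl36al, which the symbol rule leaves out, averaged 593 TPM, against 112 TPM for Rpl36a, and was higher in 54 cells and lower in 2. Rpl36a had 14.5% unique windows, and Rpl36al was not among the genes that share windows of 50 bases with it. Rpl7l1 went the other way, with 294 TPM, against 2331 TPM for Rpl7, and was lower in 56 of 56 cells. Within the pairs rho over cells was -0.01 for Rps27l and Rps27, 0.16 for Rpl22l1 and Rpl22, 0.26 for Rpl36al and Rpl36a and 0.06 for Rpl7l1 and Rpl7.

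Rps27l and Rps27 can be told apart by sequence, since 192 of their 252 coding bases are equal (76.2%). The same 60 coding bases of both, bases 7 to 66 in coding exon 2, differ at 19 places, which are in capitals. They lie at chr9:66946831-66946890 on the plus strand (Rps27l) and chr3:90213242-90213301 on the minus strand (Rps27) of GRCm38. Rps27l had 77.6% unique windows, and Rps27 had 1.35% and 8 pseudogenes with a shared window.
Rps27l: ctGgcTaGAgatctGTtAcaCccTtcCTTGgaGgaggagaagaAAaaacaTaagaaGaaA
Rps27: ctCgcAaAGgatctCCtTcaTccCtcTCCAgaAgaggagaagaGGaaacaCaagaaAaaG

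Members with roles beyond the ribosome's core were at different levels. The stalk of the large subunit, which recruits translation factors, is built on Rplp0 with Rplp1 and Rplp2 attached: Rplp0 had 22, 4561 and 7542 TPM (lowest, median and highest cell), Rplp1 had 586, 2812 and 6321 TPM, and Rplp2 had 241, 1706.5 and 3507 TPM. Rplp1 and Rplp2, which the ribosome holds in more copies than Rplp0, thus had lower medians than Rplp0. Rpsa, also known as the laminin receptor precursor, had 349, 723.5 and 1774 TPM. Of the genes that encode a ribosomal protein fused to ubiquitin or a ubiquitin-like domain, Fau had 0, 222 and 555 TPM and Rps27a had 7, 233.5 and 610 TPM. Rps6, the member phosphorylated by the S6 kinases, had 0, 67.5 and 594 TPM. Rpl5 and Rpl11, which bind the 5S rRNA and can bind Mdm2, had 2, 56.5 and 274 TPM and 1, 53 and 715 TPM. Gnb2l1, the gene of the scaffold protein Rack1 on the small subunit and also outside the rule, had 269, 4149 and 8152 TPM.

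Of the 78 members, 46 were detected, at 1 TPM or more, in all 56 cells, and the background over all genes was 3.77% (398 of 10565). A further 21 members were detected in 55 cells, and 17 of these were missing only in T3_2, so that 63 members were detected in every cell once T3_2 was left out. Another 4 were detected in 50 to 54 cells and 7 in fewer. Of the 4368 member values, 3.34% were at 0, against 55.4% of all values of the table. Detection follows level: among members at 1000 TPM or more 23 of 25 were detected in all cells, against 62.8% of the 113 other genes at that level, and between 100 and 1000 TPM it was 20 of 38, against 15.5% of 1537 other genes. Under 100 TPM 3 of 15 members were in all cells, against 0.487% of 8837 other genes. Outside the 6 lowest, the members detected in the fewest cells were Rpl24 (47 cells), Rpl10 and Rpl17 (50 cells each), and Rps12 and Rpl27a (52 cells each).

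Cell T3_2 was low in most members and high in a few. It gave the lowest share of all cells and yet the highest value of 7 members, among them Rps14 (12941 TPM), Rps20 (9878 TPM), Rpsa (1774 TPM), Rps16 (1443 TPM), Rpl3 (1080 TPM) and Rpl23 (1034 TPM). In all, 12 of 78 members were above their own median there. Rplp0 and Rps18 were at 22 TPM each and Rps15 and Rpl14 were listed at 0, all of them genes whose median was above 1000 TPM. By contrast T4_10, the cell with the highest share, was above the median for 56 of 78 members and was the highest cell for 16, among them Rpl32, Rpl41, Rpl4, Rps19 and Rps18. These counts were made over the members alone, so whether other genes behaved alike in these cells was not tested. The genes detected numbered 3096 in T3_2 and 4766 in T4_10, against a median of 4743.5 over cells.

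Cell-to-cell variation was measured as CV2, the square of the ratio of SD to mean, and compared with the running median of genes of similar mean; the difference on the log2 scale is called excess variation. The members varied less than other genes of their level. Excess variation was below -1 for 62 of the 78 members, where the background was 15.1% of the 7871 genes detected in at least 10 cells, and above 1 for 1 member, where the background was 13.1%. The median excess was -1.53 for the members and 0 for all genes. The large subunit had 38 of 46 members below -1 (median -1.72) and the small subunit 24 of 32 (median -1.13). The count held within levels: 18 of 25 members at 1000 TPM or more were below -1, against 2.65% of 113 other genes, 32 of 38 between 100 and 1000 TPM, against 12.3% of 1533, and 12 of 15 under 100 TPM, against 15.2% of 6147.

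The 6 most even members for their level were Rpl21 (excess -4.20), Rpl13 (-3.47), Rps15a (-3.43), Rpl22 (-3.35), Rpl37 (-3.32) and Rpl9 (-2.92). Rpl21 had 20 TPM in T3_2, a median of 124 and a highest value of 246 TPM. Rps15a stayed between 63 and 350 TPM, Rpl9 between 130 and 593 TPM, and Rpl13 between 23 and 189 TPM. These genes averaged 80.9 to 295 TPM, a range in which most other genes were listed at 0 in some cells. Among the members above 1000 TPM, Rpl35 had the lowest excess, -2.49, and spanned 847 to 2227 TPM.

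**Figure D4:**
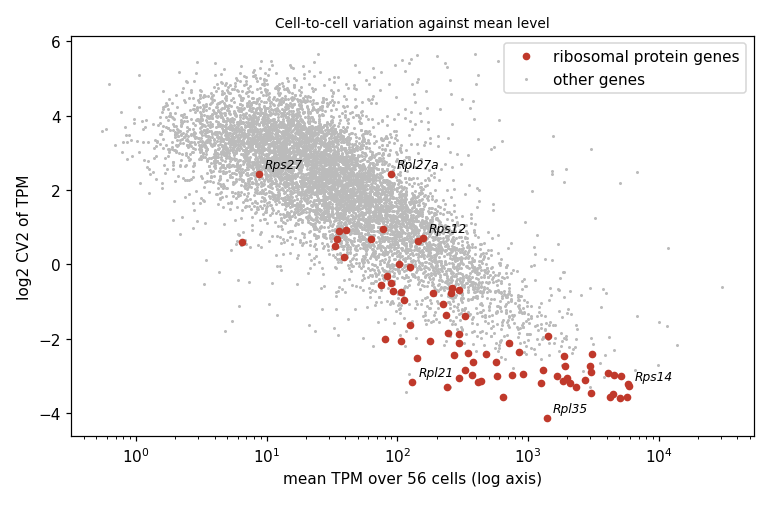
The x axis gives the mean TPM over 56 cells on a log axis and the y axis log2 CV2 of TPM; red dots are the 78 ribosomal protein genes and grey dots the other genes detected in at least 10 cells. The red dots lie along the lower edge of the cloud, with 62 of 78 more than 1 below the running median and Rpl27a alone more than 1 above it.

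The 6 most uneven members were Rpl27a (excess 1.14), Rps12 (-0.17), Rps27l (-0.30), Rpl10 (-0.33), Rps20 (-0.47) and Rps4x (-0.52). Rpl27a had a median of 44.5 TPM and 1505 TPM in its highest cell, T4_3. Without that cell its excess was -0.75, so its call rests on 1 cell. T4_3 was the highest cell for 11 members in all, a count made over the members alone, and had the fewest genes detected of all cells (2679). Rps12 spanned 0 to 1049 TPM around a median of 113 TPM and Rpl10, which joins the large subunit late in its assembly, spanned 0 to 754 TPM around 95.5 TPM. Without its highest cell, Rps12 had an excess of -0.13 and Rps20, highest in T3_2, had -1.06. Rps4x spanned 56 to 3786 TPM around 1714.5 TPM.

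Most pairs of members were positively correlated over cells, with a low mean. Of the 3003 pairs of members, 81.1% had a positive Spearman's rho over the 56 cells, and the mean rho was 0.158. It was 0.33 among the members at 1000 TPM or more and 0.09 among those under 100 TPM. Within the sets the mean ran from 0.04 for T1 through 0.14 for T2 and 0.15 for T4 to 0.18 for T3 and for T5, and it was 0.136 without T3_2 and T3_5. When each member was divided by the summed member TPM of its cell, which by construction lowers the correlations, the mean was 0.02. The highest pairs were Rpl32 with Rps19 (0.70), Rpl32 with Rps18 (0.68) and Rpl14 with Rpl32 (0.67). All genes of a cell share its library and its fixed total, so these values are descriptions. Pairs of other genes were not looked at, so the share of positive pairs and the mean rho have no background beside them.

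Each member was also set against the share of TPM taken by the other members together. The median rho was 0.38 and 74 of 78 members had a positive value. For members at 1000 TPM or more it was 0.54, for those between 100 and 1000 TPM 0.34 and for those under 100 TPM 0.07, and the other genes detected in at least 28 cells had medians of 0.04, 0.03 and 0.00062 with the ribosomal share in the same classes. Rpl32 (0.81), Rps18 (0.76) and Rps19 (0.72) followed the rest most closely, and Rps12 (-0.19), Rpl24 (-0.08) and Rpl34 (-0.03) least. Rps19 is the member most often mutated in Diamond-Blackfan anaemia in humans.

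The share of ribosomal protein TPM was next set beside the cytokines of these cells. The cytokine score, the mean z-score of log2(TPM + 1) of 11 Th2 cytokines, had a rho of -0.26 with the share (Pearson's r = -0.23), which was -0.35 without T3_2 and T3_5. Within the sets rho was -0.50 (T2), -0.43 (T5), -0.39 (T4), -0.20 (T3) and 0.14 (T1). With the mean log2(TPM + 1) of the members in place of their share, rho was 0.05, so that the direction depended on the measure. With the cytokines, chemokines and Penk taken out of the total before the share was formed, rho was -0.19. The 11 cytokines together took 0.0201% to 14.2% of a cell's TPM, with a median of 0.725%. The cells T2_8 and T2_10, in which they took 14.2% and 11.3%, had ribosomal shares of 6.52% and 6.26%, the lowest outside T3_2. In the cells with the highest ribosomal shares, T4_10 and T5_1, they took 0.116% and 0.234%. Because TPM has a fixed total, a cell with much cytokine mRNA has less room for every other gene, and the part of this closure was not tested beyond the value without these genes.

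No single cytokine was closely tied to the share: rho was -0.29 for Csf2, -0.20 for Il6, -0.20 for Il10, -0.18 for Il4, -0.17 for Il13, -0.17 for Il3, -0.03 for Il9, 0.01 for Il31, 0.03 for Il24, 0.07 for Areg and 0.11 for Il5. Il5, Il6 and Il9 were above 0 in 13 or 14 cells, so their values rest on few cells. Among the 4 chemokines Ccl1, a ligand of Ccr8, had the lowest rho (-0.36) and a range of 0 to 47466 TPM. The others had -0.20 (Ccl5), -0.03 (Ccl3) and -0.01 (Ccl4).

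**Figure D5:**
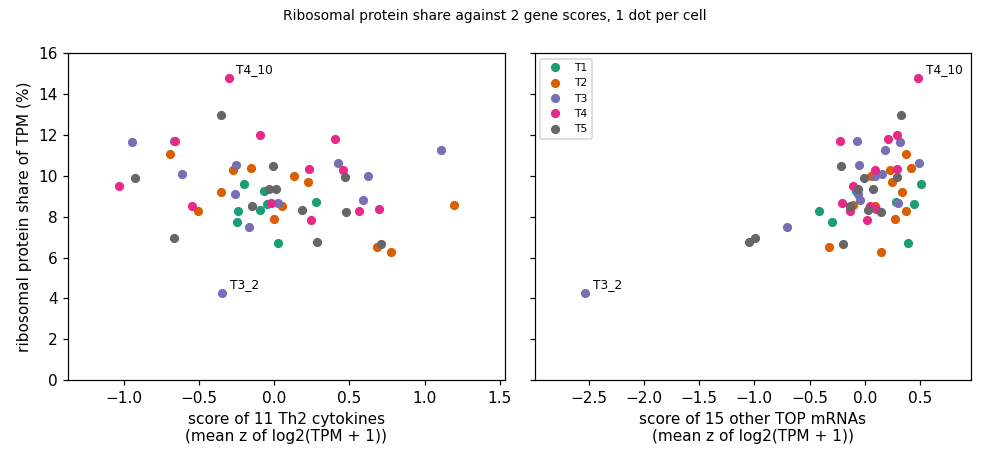
The y axis of both panels gives the ribosomal protein share of TPM in percent; the x axis gives the score of 11 Th2 cytokines on the left and of 15 other TOP mRNAs on the right, each the mean z-score of log2(TPM + 1), and each dot is 1 cell coloured by set. On the left the dots scatter widely (rho -0.26); on the right they rise (rho 0.44), with T3_2 far to the lower left.

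Other mRNAs with a TOP tract went with the ribosomal share more than the cytokines did. The score of 15 such mRNAs, mostly translation factors, had a rho of 0.44 with it, and 14 of the 15 genes had a positive value. By set rho was 0.48, 0.41, 0.45, 0.53 and 0.53 in T1 to T5, and it was 0.40 without T3_2 and T3_5 (0.42 with the z-scores formed again over the remaining cells). Eef1a1, the elongation factor that brings tRNAs to the ribosome, had 0.47, Eef1b2, its exchange factor, 0.43, and at the low end Hnrnpa1 had -0.06 and Eif3h 0.02. Hnrnpa1 was above 0 in 11 cells. The regulators of the mTOR and Myc pathways had a score rho of 0.34 (Rptor 0.25, Eif4ebp2 0.24, Max -0.07, Rps6kb1 -0.10), with values from -0.05 in T1 to 0.58 in T5. The median rho of the 14 single genes was 0.07, and 0 of them reached 0.3. The list holds activators and inhibitors scored in the same direction, so the score is no measure of pathway activity. Rptor and Eif4ebp2 were above 0 in 14 and 8 cells, so their values rest on few cells.

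For genes of ribosome assembly the value depended on the measure. The score of 34 biogenesis genes had a rho of 0.04, which was -0.03 without T3_2 and T3_5 (-0.02 with the z-scores formed again over the remaining cells) and 0.46 against the mean log2(TPM + 1) of the members. Single genes ran from Nop10 (0.36) and Nhp2 (0.29), proteins of the H/ACA particles that modify rRNA, to Bop1 (-0.15) and Rrs1 (-0.32), which act in large subunit assembly. The 76 mitochondrial ribosomal protein genes, which build the separate ribosome of mitochondria, had a score rho of 0.01 (Mrps18b 0.27, Mrpl21 0.26, Mrpl33 -0.22, Mrps26 -0.23). The G2/M genes had -0.20, with 2 of 15 genes positive (Ccna2 0.04, Mki67 0.01, Tpx2 -0.20, Bub1 -0.21), and 0.12 against the mean log2 level. The 9 genes of the p53 response had 0.19 (Zmat3 0.27, Ccng1 0.24, Phlda3 -0.11, Cdkn1a -0.17). The number of genes detected in a cell, which spanned 2679 to 8396, had a rho of -0.10 with the share and 0.45 with the mean log2 level of the members.

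The row most like the ribosomal share over the 56 cells was Gm6251 (rho 0.82), which had no entry under that name in GENCODE M21. Cand2 (0.76) overlaps Rpl32 on the opposite strand and shares 4 windows of 50 bases with it, so that without strand information their reads cannot be told apart there. Mir682 (0.66) is the row with the Rpl37a sequence, and Gm5148 (0.61) is annotated as protein coding. They were followed by Kars, the lysyl-tRNA synthetase (0.49), Eef1a1 (0.47), Ddx39b, an RNA helicase of mRNA export (0.45), Polr2b, a subunit of RNA polymerase II (0.44), and Eef1b2 (0.43). The lowest values were those of Gigyf2, a translational repressor (-0.44), Mgat2, an enzyme of N-glycan synthesis (-0.43), Ell2, an elongation factor of RNA polymerase II (-0.42), Mapkapk2, a kinase downstream of p38 (-0.40), and Spry2, an inhibitor of growth factor signalling (-0.40). These are extremes of 4215 genes whose median rho was 0.008.

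Of the ribosomal genes that the rule leaves out, Gnb2l1 had a rho of 0.42 with the share and Rpl36al 0.19.

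Promoters were available for 59 of the 78 members, as 70 promoters of 300 bases from RefSeq (GRCm38.p6), 250 before and 50 after the start. The letters CTTTCC, a form of the pyrimidine tract, lay within 20 bases of the start on the sense strand in 14.3% of member promoters and in 1.95% of all 32851 promoters. Within 50 bases of the start the shares were 28.6% and 4.69%. CCGGAAG, the core that Ets family factors bind, occurred on either strand of the whole promoter in 35.7% and 8.86%, AAGATGGC, the core bound by Yy1, on either strand in 12.9% and 2.75%, and TATAAA on the sense strand in 8.57% and 8.32%. CTTTCC within 20 bases was found in promoters of members at very different levels, from Rpl4 and Rpl13a to Rps27. The sequences from 60 bases before to 20 after the start are shown for these 3 and for 2 members without it there, Rps27l and Rplp0, with CTTTCC in capitals. They lie at chr9:64173327-64173406 (Rpl4, plus), chr7:45128726-45128805 (Rpl13a, minus), chr3:90213629-90213708 (Rps27, minus), chr9:66946026-66946105 (Rps27l, plus) and chr5:115559407-115559486 (Rplp0, plus).
Rpl4: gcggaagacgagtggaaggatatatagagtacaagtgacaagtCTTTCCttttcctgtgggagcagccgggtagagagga
Rpl13a: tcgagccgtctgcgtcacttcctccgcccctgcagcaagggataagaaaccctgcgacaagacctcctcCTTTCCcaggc
Rps27: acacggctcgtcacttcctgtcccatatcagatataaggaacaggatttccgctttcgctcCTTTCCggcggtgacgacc
Rps27l: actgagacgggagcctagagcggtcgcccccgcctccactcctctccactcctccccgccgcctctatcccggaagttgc
Rplp0: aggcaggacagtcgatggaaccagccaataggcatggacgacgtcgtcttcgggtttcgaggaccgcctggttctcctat

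Rps27l and Rps27 thus differ in these letters as well as in level, and Rpl4, with a mean of 5071 TPM, and Rps27, with 8.70 TPM, share them. A match of letters is not a measured start or site, and starts of the RefSeq table can differ from those used in these cells.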

How the data were processed

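Each of the 56 cells is 1 library. The deposited table of 10565 genes holds a score, TPM in whole numbers as rounded by the authors, with column sums of 999202 to 999914; each gene reached 5 TPM or more in some cell. Per the submitters' processing notes, FastQC, Bowtie 0.12.2 and Cufflinks were used with the build mm9; the sources used here do not give their roles, the read length or the depth. The pool of 10000 cells was left out.

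Excess variation was log2 CV2 minus its running median over 101 genes of nearest mean, for genes detected (1 TPM or more) in at least 10 cells. At either end of the range of means the window stayed fixed on the last 101 genes. The members were part of the running median. The measure was tested on simulated data. Scores used log2(TPM + 1). Windows of 50 bases came from each member's APPRIS principal transcript (GENCODE M21, GRCm38), a later build than the authors'. Python 3.11.15, numpy 2.4.6 and pandas 2.3.3 were used.

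The gene family and the lists were chosen with earlier results of these data known. Within the family, the members are those that the symbol rule gives. Named were the 6 highest and lowest members by mean and by excess, those in the fewest cells, paralogs, stalk proteins, Rpsa, Fau, the 3 members most and least like the others, the 11 cytokines, the 10 other genes most and the 5 least like the share, and up to 4 genes of each other list. Rps6, Rps27a, Rpl5, Rpl11, Rpl35, Rps18, Rps3, Rpl39, Rpl37a, Rpl14, Rps15, the members highest in T3_2 and the sequences shown were chosen after their values were seen. Some genes that this rule names are not reported here.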

Additional observations from a re-analysis of the deposited data

How the results depend on the processing

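All values rest on 56 cells of 1 sample, with unknown depth per cell, so the error of measurement in differences between cells could not be estimated. The median ribosomal share was 8.69% to 10.1% under all alternatives, the members detected in all cells numbered 36 to 63 and those with excess below -1 numbered 56 to 67, with a median excess of -1.77 to -1.29. The large to small ratio was 0.707 over members with no named pseudogene. Members with excess above 1 numbered 0 without each gene's highest cell, 0 without set T4 and 10 with TPM rescaled per cell by genes detected in every cell; leaving out 1 cell at a time gave 0 to 1. The mean pairwise rho was 0.274 and 0.244 as Pearson's r of log2(TPM + 1) and log2(TPM + 10), and 0.024 with each member divided by the cell's member total.

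With the mean log2(TPM + 1) of members in place of the share, rho was 0.054 with the cytokine score, 0.453 with genes detected, 0.116 with the G2/M score and 0.459 with the biogenesis score; the first 3 changed sign, and the cause was not tested. The biogenesis rho, 0.044, also changed sign, with the z-scores of all 56 cells kept, without T3_2 and T3_5 (-0.031), without set T2 (-0.00099), T3 (-0.047) or T5 (-0.023), and was -0.0091 to 0.084 with 1 cell left out. The TOP rho was 0.506 with ranks centred by set, 0.377 without the 2 cells farthest from the median share, 0.493 without set T2 and 0.408 to 0.494 with 1 cell left out. Leaving out single cells and the window lengths of 36 and 100 bases were alternatives chosen after seeing the data. The protein identity of the paralogs was not run. No paired analysis was possible because there is 1 group of cells.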
